A study of Rattus norvegicus with 18 samples.

Results

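The enzymes described here metabolise drugs, steroids, fatty acids and reactive aldehydes, and they were read in the suprachiasmatic nucleus (SCN) of the rat, the hypothalamic cell group that houses the main circadian clock. The members were all probe sets whose single gene symbol in the array's annotation begins with Cyp and a digit (cytochromes P450, with Cyp51 left out), Gst (glutathione S-transferases), Ugt1 or Ugt2 (UDP-glucuronosyltransferases), Sult (sulfotransferases) or Aldh (aldehyde dehydrogenases), together with Por (P450 oxidoreductase). This rule found 149 of the 8799 probe sets on the array, which represent 88 genes. There were 79 probe sets of 48 Cyp genes, 25 of 12 Gst genes, 12 of 9 Ugt genes, 18 of 9 Sult genes, 12 of 9 Aldh genes and 3 of Por.

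All samples were SCN tissue of untreated adult male Long-Evans rats. The animals came from a light-dark cycle, were placed in constant darkness at the time of lights-off, and were taken from the following projected lights-on (circadian time, CT, 0) at steps of 6 h. The 8 groups analysed were the time points 0, 6, 12 and 18 h (day 1) and 24, 30, 36 and 42 h (day 2), which gave every phase (CT 0, 6, 12 and 18) a pool from either day. RNA of 5 rats was pooled at each time point. Each pool was hybridised to rat U34A GeneChips in a first run of 10 arrays and a technical repeat of 8. At 24 h and 36 h the first run had an array a and an array b, assumed here to read 1 pool, which the labels do not say. A pool averages its animals, so a p-value here weighs scatter among pools, array error included, and not scatter among rats. The immortalised SCN cells that the title also names were not used here.

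P450s insert oxygen into lipophilic substrates, and the microsomal ones receive their electrons from Por. Conjugating enzymes then attach glutathione, glucuronic acid or sulfate, which makes the products soluble. In liver, many of these genes follow the time of day under the PAR bZIP transcription factors Dbp, Tef and Hlf, which bind a DNA element called the D-box. The question asked of the SCN was which of these liver target classes are measurable there and at which phase each is highest.

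The D-box was searched as the letters TTATGTAA, TTACGTAA or TTACATAA (the last is the reverse strand of the first, and the second reads the same on both strands) in RefSeq promoter windows of the GRCr8 build, which run from 250 bases before to 50 after the annotated start. Windows were matched for 69 of the 88 genes, and 3 of them (4.35%) held the letters, against 338 of all 33469 windows (1.01%). The 3 genes were Cyp2b2, Cyp2g1 and Gsta3. In Gsta3 the letters lay after the start, so that its sequence is not shown. The stretches of the other two are printed with the D-box in capitals, followed by the upstream sequence of Cyp2e1, a gene whose first probe set had the lowest rhythm p of the tested members, in lower case throughout because its window held none of these letters.
Cyp2b2 (chr1:90722031-90722094, + strand): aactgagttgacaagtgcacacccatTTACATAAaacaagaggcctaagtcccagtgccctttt
Cyp2g1 (chr1:91273122-91273189, + strand): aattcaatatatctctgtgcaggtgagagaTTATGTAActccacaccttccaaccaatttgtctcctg
Cyp2e1 (chr1:205269847-205269966, + strand): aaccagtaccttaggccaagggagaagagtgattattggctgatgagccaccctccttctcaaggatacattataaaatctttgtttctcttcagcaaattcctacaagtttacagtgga
None of the 33 matched genes that were bright enough to be tested held a match, and the probe sets of Cyp2b2, Cyp2g1 and Gsta3 were all too dim for the test. A match describes letters only, and a window without them says nothing of sites elsewhere.

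Values are the authors' intensities on a linear scale, with a floor at 12.1, which is the 10th percentile over all arrays. Of the 149 member probe sets, 86 (57.7%) exceeded the floor on all 18 arrays, against 71.8% of all 8740 probe sets that are not controls. A further 41 did so on most arrays, 20 on at most 50% of them, and 2 on none. Rhythm was tested for probe sets whose geometric mean over the 8 pools exceeded 121, the median of the array, and 58 member probe sets (38.9%) of 39 genes passed, against 50% of all probe sets by construction. The member just above that limit was a probe set of Sult2a2 at 122, and the one just below it was Cyp21a1 at 119. The intensity of a probe set also depends on how its probes bind, so that levels are read against the floor and not between genes. Of 10 hepatocyte markers, listed as genes that should be absent, 6 exceeded the floor on all 18 arrays and 4 the limit. A level above either thus does not by itself show expression in the SCN.

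The classes differed in how many of their probe sets passed. Of the Gst probe sets 21 of 25 were tested, and of the Aldh probe sets 11 of 12, while only 18 of 79 Cyp, 5 of 18 Sult and 1 of 12 Ugt probe sets were. The P450 subfamilies also differed. None of the 7 probe sets of Cyp2b and none of the 14 of Cyp2c passed, and their geometric means reached at most 109 and 108. Of Cyp3a, which oxidises steroids and drugs, 4 of 7 passed (up to 318), of Cyp4a, which hydroxylates fatty acids, 2 of 6 (up to 296), and of Cyp2a 1 of 4 (Cyp2a1 at 626). Those of Cyp3a read 2 of its 4 genes, and 3 of them were of Cyp3a23-3a1, which had a further probe set at only 39.6. Cyp7a1, the first enzyme of bile acid synthesis, had means of 35.5 and 13.4 on its probe sets, and the 4 probe sets of Cyp1a, which oxidises aromatic hydrocarbons, lay between 12.8 and 39.2. The steroid-forming Cyp11a1, Cyp11b2, Cyp17a1, Cyp19a1 and Cyp21a1 also stayed under the limit, at 24.2, 40.9, 30.9, 77.0 and 119.

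**Figure D1:**
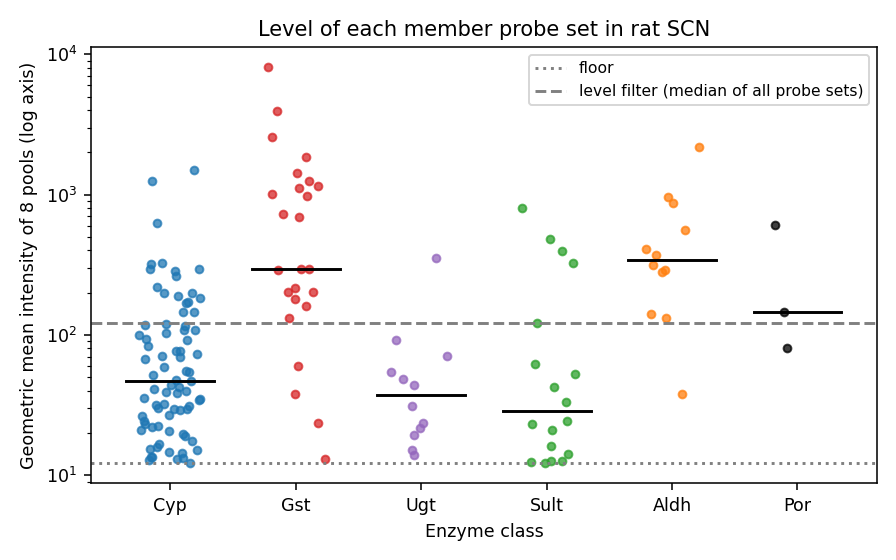
Geometric mean intensity over 8 pools (log axis) of each of the 149 member probe sets by enzyme class, with a bar at each class median, a dotted line at the floor of 12.1 and a dashed line at the level limit of 121. Most Gst and Aldh probe sets lie above the dashed line (21 of 25 and 11 of 12), and most Cyp, Ugt and Sult probe sets lie below it.

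The P450s that did pass were 14 genes: Cyp2a1, Cyp2d4, Cyp2e1, Cyp2j3, Cyp3a9, Cyp3a23-3a1, Cyp4a8, Cyp4f1, Cyp4f6, Cyp4f17, Cyp7b1, Cyp24a1, Cyp27a1 and Cyp27b1. Cyp7b1, which hydroxylates oxysterols and neurosteroids, measured 1254 and 1273 at CT 0, 1393 and 1328 at CT 6, 1161 and 1492 at CT 12, and 991 and 1248 at CT 18. Both CT 6 pools lay above those of CT 0 and CT 18, and the CT 12 pools overlapped all other phases. Cyp2d4, a P450 known from rat brain, measured 1362 and 1550 at CT 0, 1253 and 1490 at CT 6, 1296 and 1814 at CT 12, and 1653 and 1752 at CT 18. Its CT 18 pools lay above those of CT 0 and CT 6 and within the range of CT 12. Both genes had small fitted amplitudes, 0.15 ± 0.10 for Cyp7b1 and 0.16 ± 0.10 for Cyp2d4 (log2, SE, n = 8 pools), where the amplitude is the height of a fitted 24 h cosine above its mean. That is about the median over all 4370 tested probe sets, 0.16.

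No member passed the test of a 24 h rhythm. Limma called 0 of the 58 members, and 0 (0%) of the 4370 probe sets tested, at an adjusted p under 0.05 (Benjamini-Hochberg over all 4370). At an unadjusted p under 0.05, limma gave 8 of the 58 members, against 6.36% of all tested probe sets. These 8 read 6 genes, Cyp2e1, Sult1a1, Sult1d1, Ugt2b, Gsta1 and Aldh7a1, so that probe sets of 1 gene are counted separately. The median amplitude was 0.20 in the members and 0.16 in all tested probe sets. The fitted peak was nearest to CT 0 in 17 members, to CT 6 in 9, to CT 12 in 13 and to CT 18 in 19, while 26.3%, 21.1%, 28.0% and 24.6% of all tested probe sets peaked nearest to these phases.

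**Figure D2:**
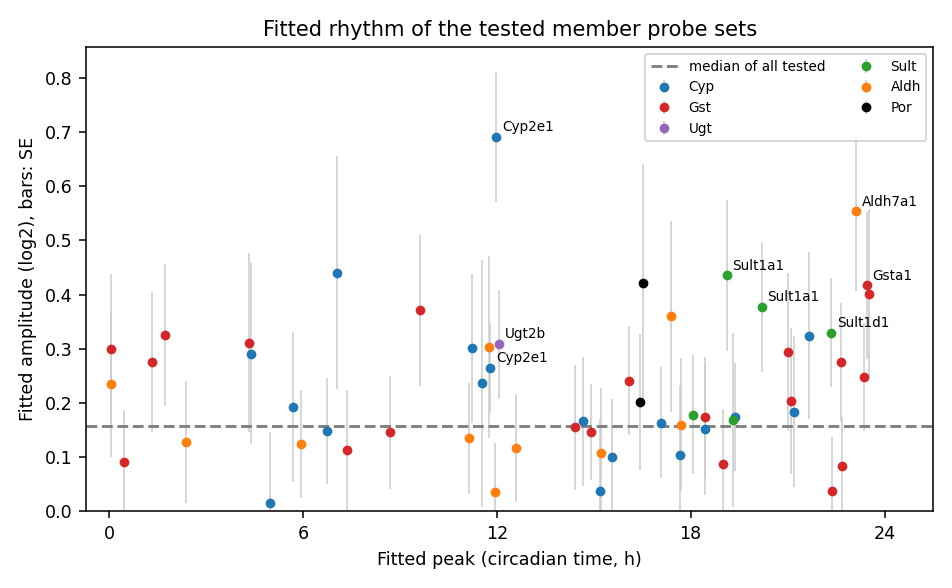
Fitted peak (circadian time) against fitted amplitude (log2, bars are standard errors) of the 58 tested member probe sets, coloured by class, with a dashed line at the median amplitude of all tested probe sets (0.16). The labelled points are the 8 with an unadjusted rhythm p under 0.05; a Cyp2e1 probe set at 0.69 has the highest amplitude of those drawn.

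Cyp2e1, which oxidises ethanol, ketone bodies and small solvents, had the highest amplitude of the 58 tested member probe sets. Its first probe set (M20131cds_s_at) measured 113 and 118 in the pools at CT 0, 239 and 187 at CT 6, 329 and 276 at CT 12, and 172 and 256 at CT 18. Both CT 12 pools lay above every pool of the other phases, and both CT 0 pools lay below them. The fitted amplitude was 0.69 ± 0.12 (log2, SE, n = 8 pools) with a peak at CT 12.0, and CT 12 exceeded CT 0 by 1.38 ± 0.24. Limma's adjusted p was 0.309 for the rhythm and 0.144 for that difference, and an exact, direction-free permutation of the 8 pools, with 315 distinct arrangements, gave p = 0.0159 for a gene picked from many.

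The second Cyp2e1 probe set (S48325_s_at) showed the same phase with a smaller range. It measured 168 and 158 at CT 0, 189 and 216 at CT 6, 242 and 228 at CT 12, and 198 and 198 at CT 18. Again the CT 12 pools were the highest and the CT 0 pools the lowest. The amplitude was 0.26 ± 0.08 (SE, n = 8) with a peak at CT 11.8, limma's adjusted p was 0.746, and the exact permutation p was 0.00952. Its remaining probe set was dim and exceeded the floor on 12 of 18 arrays. The suffix _s_at marks probes that may be shared between similar transcripts.

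The single arrays behind the Cyp2e1 pools were less uniform than the pool means. In the 24 h pool the first probe set read 50.9 on array a, 480 on array b and 89.0 on the repeat array, and in the 0 h pool it read 59.7 in the first run and 215 in the repeat. The low values of both CT 0 pools thus do not appear on every array. The difference of CT 12 over CT 0 was 1.66 in the first run alone, 1.10 in the technical repeat alone and 1.00 without the arrays named a, all in the same direction.

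**Figure D3:**
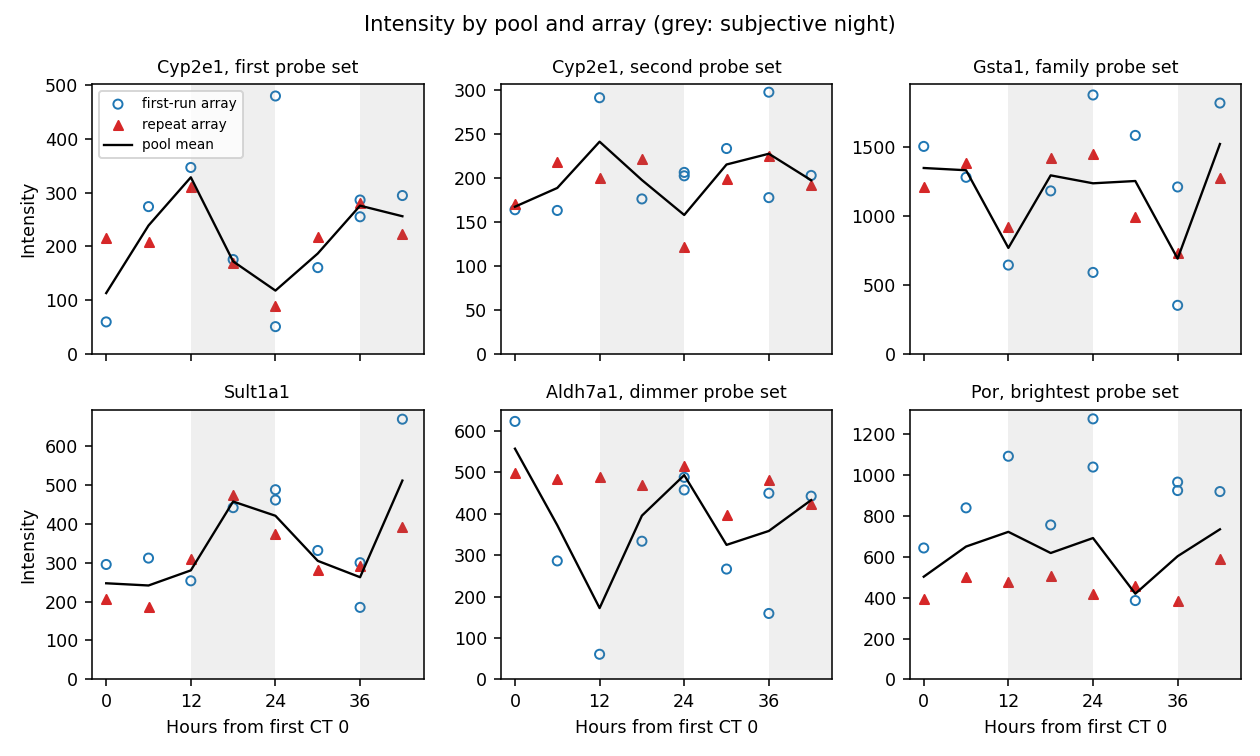
Intensity (linear axis from 0) against hours from the first CT 0 for 6 member probe sets; open circles are first-run arrays, triangles are technical repeat arrays, the line joins the pool means and grey marks the subjective night. The Cyp2e1 probe sets are highest at 12 and 36 h, the Gsta1 probe set is lowest there, and the dimmer Aldh7a1 probe set varies in the first run (60.5 to 623) but much less in the repeat (396 to 515).

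Por, which supplies electrons to microsomal P450s and is a PAR bZIP target in liver, had 3 probe sets, 2 of them tested. The brightest (M10068mRNA_s_at) measured 503 and 692 at CT 0, 651 and 419 at CT 6, 723 and 603 at CT 12, and 619 and 735 at CT 18. All phases overlapped; the fitted peak lay at CT 16.4, the amplitude was 0.20 ± 0.13 (SE, n = 8) and limma's adjusted p 0.801. The other tested probe set (rc_AI137856_s_at) measured 123 and 169, 62.8 and 163, 129 and 251, and 160 and 189 at the same phases; its peak lay at CT 16.5, its amplitude was 0.42 ± 0.22 (SE, n = 8) and limma's adjusted p 0.788. Its lowest pool rested on a repeat array at 22.9, where the first run read 172. The third Por probe set was under the level limit, with a fitted peak at CT 11.6.

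Among the glutathione S-transferases, Gsta1, a liver enzyme for electrophiles and peroxides, was lowest at CT 12 on all 3 tested probe sets. The brightest of them (S72505_f_at) measured 1347 and 1236 at CT 0, 1331 and 1253 at CT 6, 768 and 690 at CT 12, and 1293 and 1520 at CT 18. Both CT 12 pools lay well below the 6 others, which did not separate by phase. CT 12 minus CT 0 was -0.83 ± 0.27 on the log2 scale (SE, n = 8, limma adjusted p = 0.514), and the exact permutation p of the rhythm was 0.0984. The other Gsta1 probe sets gave -0.49 ± 0.20 and -0.52 ± 0.22. All 3 have the suffix _f_at, which marks probes that read a family of similar sequences, so that other alpha-class transferases may add to the signal and the probe sets are not independent.

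A limit applies to the CT 12 pools. On 3 first-run arrays, those of 12 h, 18 h and 36 h b, the mean of the 9 hybridisation controls was 2.05 to 3.38 times the median array, against at most 1.47 times on the others. The Gsta1 probe set read 644 on the 12 h array and 353 on array b of 36 h, and 1210 on array a. Without these 3 arrays its CT 12 minus CT 0 was -0.48, and that of the other Gsta1 probe sets was -0.27 and -0.16, while Cyp2e1 gave 1.32 and 0.30. The count of members at an unadjusted p under 0.05 for this difference went from 10 to 2. The level limit was drawn anew for that fit, and the share over all probe sets in it is not given here. The part of the controls in these results was not tested.

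The brightest probe sets of 5 other Gst genes lay far above the floor, with fitted amplitudes at or under 0.17. Gstm1, a mu-class transferase, measured 7329 and 8001 at CT 0, 8169 and 6725 at CT 6, 8634 and 9111 at CT 12, and 8894 and 8179 at CT 18 on its brightest probe set, with an amplitude of 0.15 ± 0.09 (SE, n = 8). A dimmer Gstm1 probe set (X04229cds_s_at) had 1477 and 1109 at CT 0 against 800 and 909 at CT 12, with its fitted peak at CT 1.71 where the brightest peaked at CT 14.9. Gsto1, an omega-class transferase, measured from 3206 to 4656 over the pools, Gstp1, the pi-class enzyme, from 2090 to 3588, Gstm5 from 1573 to 2192 and Gsta4, which detoxifies lipid aldehydes, from 1092 to 1458, each on its brightest probe set. Their amplitudes were 0.15 for Gsto1, 0.17 for Gstp1, 0.09 for Gstm5 and 0.04 for Gsta4. Dimmer probe sets of Gstm5 (U86635_at, geometric mean 1425) and Gsta4 (X62660mRNA_at, 290) fitted 0.30 ± 0.14 and 0.28 ± 0.13, with CT 12 minus CT 0 at -0.60 and -0.52, or -0.24 and 0.09 without the arrays with high hybridisation controls.

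The 21 tested Gst probe sets, those of Gsta1 included, read 10 genes. Of these probe sets 15 had lower fitted values at CT 12 than at CT 0, against 48.9% of all tested probe sets. The median difference was -0.18 (log2) in Gst and 0.01 over all tested probe sets. All arrays entered these values, those with high hybridisation controls included. The fitted peak was nearest to CT 0 in 11 of the 21, against 26.3% of all tested probe sets. Gstm2 went against this, with 195 and 234 at CT 0, 403 and 361 at CT 6, 267 and 393 at CT 12 and 334 and 238 at CT 18 on J02592_s_at, and its fitted peak lay at CT 9.61 (amplitude 0.37 ± 0.14, SE, n = 8). A dim Gstp1 probe set (X02904cds_s_at) measured 300 and 192 at CT 0, 275 and 218 at CT 6, 129 and 148 at CT 12, and 250 and 276 at CT 18, with the CT 12 pools lowest. It had a CT 12 minus CT 0 of -0.80 ± 0.31 (limma adjusted p = 0.559), but this was -1.99 in the first run and 0.40 in the repeat.

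Sult1a1, which sulfates phenols and catecholamines, had its highest values at CT 18. It measured 247 and 421 at CT 0, 242 and 305 at CT 6, 280 and 263 at CT 12, and 458 and 512 at CT 18 on L19998_at. On L19998_g_at, which reads the same sequence, the pools were 464 and 646, 334 and 454, 368 and 461, and 673 and 540 in the same order. On the first of these both CT 18 pools lay above every other pool, and on both probe sets the CT 18 pools lay above the CT 6 pools. The amplitudes were 0.44 ± 0.14 and 0.38 ± 0.12 (SE, n = 8), and the fitted peaks CT 19.1 and CT 20.2.

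The difference of CT 6 minus CT 18 was -0.83 ± 0.28 and -0.63 ± 0.24 for the Sult1a1 probe sets (log2, SE, n = 8, limma adjusted p = 0.968 for both). In the first run alone it was -0.76 and -0.82, in the technical repeat alone -0.91 and -0.45, and without the arrays with high hybridisation controls -0.86 and -0.72. Their order is thus the same in either run. In the exact permutation test the rhythm had p = 0.168 for L19998_at and 0.0825 for L19998_g_at.

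Sult1d1, which acts on amines and eicosanoids, measured 490 and 440 at CT 0, 414 and 344 at CT 6, 273 and 343 at CT 12, and 433 and 482 at CT 18. The CT 12 pools were the lowest pools, although 343 at 36 h lay close to 344 at 30 h. The amplitude was 0.33 ± 0.10 (SE, n = 8) with a peak at CT 22.4, and the exact permutation p was 0.0222 beside a limma adjusted p of 0.746. In the first run alone the amplitude was 0.15 and CT 12 minus CT 0 was -0.29, and in the repeat alone they were 0.53 and -0.91. Of the 5 tested Sult probe sets, which read 4 genes, all had lower fitted values at CT 6 than at CT 18, against 52.9% of all tested probe sets. All 5 were also lower at CT 12 than at CT 0, against 48.9% of all, but Sult5a1 by -0.01 ± 0.22 only. The sign of that difference was the same on both days in 2 of the 5, and in the repeat alone it was positive for Sult5a1 and both Sult1a1 probe sets.

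Ugt2b, a glucuronosyltransferase of steroids and xenobiotics, was the only Ugt with a tested probe set (M74439mRNA_i_at). It measured 253 and 342 at CT 0, 316 and 362 at CT 6, 420 and 484 at CT 12, and 328 and 353 at CT 18. Both CT 12 pools were the highest. The amplitude was 0.31 ± 0.10 (SE, n = 8) with a peak at CT 12.1. The exact permutation p was 0.0286 beside a limma adjusted p of 0.746 for the rhythm. The CT 12 minus CT 0 difference was 1.04 in the first run but 0.19 in the repeat. Its other probe sets, under the level limit, had fitted peaks at CT 14.4 and CT 13.1. They exceeded the floor on only 15 and 4 of the 18 arrays, and their highest pools were 71.2 and 20.7, so that these peaks rest partly on floor values.

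Among the aldehyde dehydrogenases all 9 genes had a tested probe set. Aldh7a1, which acts in lysine breakdown, gave different pictures on its probe sets. The dimmer one (S75019_at) measured 557 and 493 at CT 0, 372 and 325 at CT 6, 172 and 359 at CT 12, and 395 and 433 at CT 18, which fitted a peak at CT 23.1 and an amplitude of 0.55 ± 0.15 (SE, n = 8; limma adjusted p = 0.746). The brighter one (S75019_g_at) stayed between 2022 and 2509 in all pools with an amplitude of 0.04. The dimmer probe set's CT 12 minus CT 0 was -2.09 in the first run, where the 12 h array read 60.5, and -0.06 in the technical repeat, and its amplitude without the arrays with high hybridisation controls was 0.20.

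The remaining aldehyde dehydrogenases included Aldh1a1 and Aldh1a2, which form retinoic acid, and Aldh1l1, a folate enzyme of astrocytes. Their fitted amplitudes were 0.11, 0.13 and 0.12, all under the median of the array. Aldh1l1 measured 548 and 597 at CT 0, 522 and 679 at CT 6, 635 and 512 at CT 12, and 471 and 534 at CT 18, so that CT 18 lay below CT 0 and overlapped CT 6 and CT 12. Aldh2, the mitochondrial enzyme that clears acetaldehyde, had the lower value on day 2 at each phase, with 518 and 380 at CT 0, 505 and 386 at CT 6, 352 and 292 at CT 12, and 535 and 361 at CT 18.

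For CT 12 minus CT 0, limma called 0 of 58 members after adjustment and 0 (0%) of all 4370 probe sets. At an unadjusted p under 0.05 it gave 10 of 58 (8.67% of all tested probe sets), 3 higher at CT 12 (4.19% of all), namely both Cyp2e1 probe sets and Ugt2b, and 7 lower (4.49% of all), namely 3 of Gsta1 and 1 each of Aldh7a1, Gstm1, Gstp1 and Sult1d1. The differences between pools had the same sign on both days in 31 of 58 members (53.4%), against 61.4% of all tested probe sets. The share with the same direction on both days was therefore not above that of the array.

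For CT 6 minus CT 18, limma called 0 of 58 members after adjustment (0.0229% of all, which is 1 probe set). At an unadjusted p under 0.05 it gave 2 members (4.26% of all), both lower at CT 6 (2.38% of all) and both of Sult1a1, and 0 higher (1.88% of all). The 3 highest on the other side were Cyp2j3, which makes epoxides of arachidonic acid, at 0.85 ± 0.43, Gstk1 at 0.56 ± 0.33 and Cyp4f17 at 0.53 ± 0.33 (log2, SE, n = 8). Cyp2j3 measured 74.8 and 181 at CT 0, 230 and 213 at CT 6, 179 and 105 at CT 12, and 97.8 and 154 at CT 18. Both CT 6 pools were the highest, but CT 6 minus CT 18 was 0.25 in the technical repeat alone and 0.31 without the arrays with high hybridisation controls. Gstk1, a transferase of mitochondria and peroxisomes, measured 713 and 788, 841 and 841, 888 and 438, and 754 and 430 at the same phases on S83436_i_at, with its lowest pools at 36 and 42 h. The other tested Gstk1 probe set (rc_AI105137_s_at) went the other way, with a CT 6 minus CT 18 of -0.28 ± 0.27.

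Cyp4f17 measured 209 and 210 at CT 0, 236 and 144 at CT 6, 179 and 176 at CT 12, and 93.4 and 174 at CT 18. Its CT 6 minus CT 18 was -0.47 in the first run alone, so that its direction rests on the technical repeat. After Sult1a1 the next smallest p on the lower side was that of Gstt2, a theta-class transferase, at -0.42 ± 0.20 on D10026_s_at, or -0.16 in the technical repeat alone. On that probe set Gstt2 measured 141 and 106, 105 and 126, 143 and 144, and 169 and 141 at the same phases. The other tested Gstt2 probe set (rc_AI138143_at) went the other way, with a CT 6 minus CT 18 of 0.21 ± 0.22.

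Day 2 against day 1 was tested with a day term beside the rhythm, with 4 pools a day. Limma called 0 of 58 members after adjustment (0% of all) and 4 at an unadjusted p under 0.05 (3.96% of all). Higher on day 2 were 3 (1.9% of all), Por on rc_AI137856_s_at by 0.76 ± 0.21, Aldh3a1 by 0.50 ± 0.19 and Cyp27b1, the enzyme that activates vitamin D, by 0.65 ± 0.26. Aldh3a1 measured 87.1, 159, 128 and 110 in the day 1 pools and 125, 154, 196 and 210 in those of day 2, so that the days overlapped. Cyp27b1 measured 68.6, 164, 135 and 122 on day 1 and 225, 136, 220 and 168 on day 2. Its 0 h pool rested on a first-run array at 32.2 where the repeat read 146, and its day difference was 0.12 in the repeat alone. Lower was 1 (2.06% of all), Aldh2 with -0.42 ± 0.15 (log2, SE, n = 8, limma adjusted p = 0.997 for all), or -0.24 without the arrays with high hybridisation controls. The next smallest p-values on that side were those of Gstk1 with -0.42 ± 0.20 and Cyp4a8, a fatty acid hydroxylase, with -0.34 ± 0.17. Cyp4a8 measured 333, 352, 351 and 299 on day 1 and 177, 267, 379 and 266 on day 2 on M37828_at. On the other tested probe sets of these genes the day difference was -0.03 ± 0.20 for Gstk1 and 0.06 ± 0.19 for Cyp4a8. The bright Por probe set gave -0.05 for the same difference, so that the Por probe sets did not share it.

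Where a gene had several tested probe sets these often placed it differently. Of 16 such genes, 8 had all fitted peaks within 6 h and 8 did not. The peaks of Cyp2e1 lay 0.19 h apart, of Gstm5 0.40 h, of Gsta1 0.79 h and of Sult1a1 1.09 h. Those of Por lay 0.12 h apart, but on rc_AI137856_s_at the peak was at CT 11.7 in the first run and CT 18.2 in the repeat. Those of Aldh7a1, Gstm1, Cyp3a23-3a1 and Gsto1 lay 11.2, 10.8, 10.3 and 10.0 h apart. The lowest amplitudes among their probe sets were 0.04 ± 0.09, 0.15 ± 0.09, 0.17 ± 0.10 and 0.08 ± 0.09 in that order. A peak fitted to so small an amplitude is poorly placed, so that these gaps do not show opposite rhythms. A pair of peaks placed at random lies within 6 h as often as not.

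The runs can be set against each other for the 52 members that passed the level limit in each run separately. They read the same RNA pools. The sign of CT 12 minus CT 0 was shared by 28 of the 52 (53.8%), against 59.2% of 3993 probe sets of the whole array, and fitted peaks lay within 6 h in 33 (63.5%), against 60.1%. Among the 19 Gst probe sets 11 shared the sign, and among the 4 Sult probe sets 1 did. For CT 6 minus CT 18 the sign was shared by 30 of the 52 (57.7%), against 53.7% of the array, and by all 4 Sult probe sets.

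**Figure D4:**
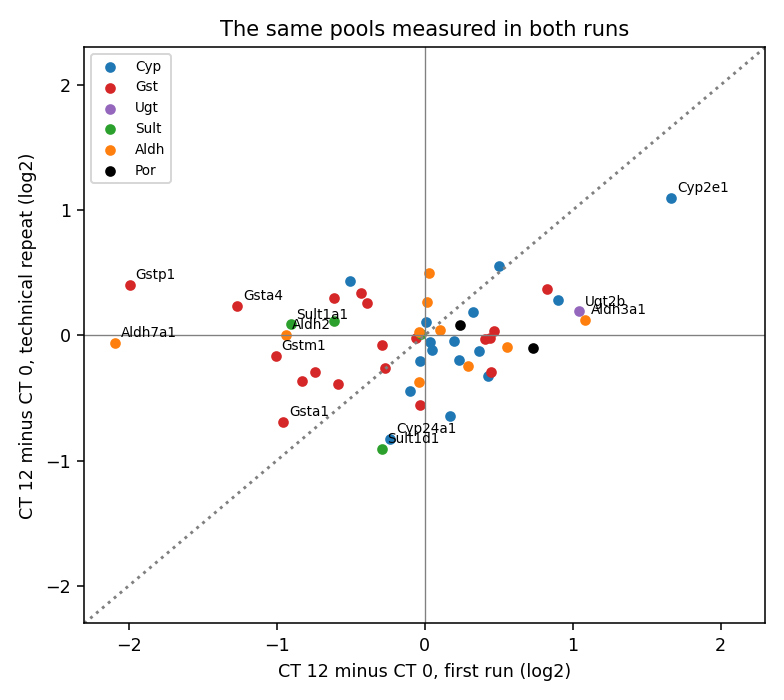
Fitted CT 12 minus CT 0 (log2) of the same RNA pools in the first run (horizontal axis) and in the technical repeat (vertical axis) for the 52 member probe sets above the level limit in each run; the dotted line marks equality. Cyp2e1 lies high in both (1.66 and 1.10), while Aldh7a1 (-2.09 and -0.06) and Gstp1 (-1.99 and 0.40) differ between runs.

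The PAR bZIP factors were measured in the same pools. Dbp had 479 and 516 at CT 0, 828 and 899 at CT 6, 1243 and 1175 at CT 12, and 841 and 779 at CT 18 on the brighter of its probe sets. Its fitted peak was CT 11.7 (amplitude 0.64 ± 0.09, SE, n = 8). Cyp2e1, whose first probe set had the lowest rhythm p of the tested members, fitted CT 12.0 there, and Por fitted CT 16.4 on its brightest probe set. Of all tested probe sets 28.0% peaked nearest to CT 12. A link between Dbp and the members was not tested. Tef and Hlf had amplitudes of 0.13 ± 0.10 and 0.15 ± 0.15, with peaks at CT 13.9 and CT 14.2. For the 3 factors limma's adjusted p was 0.166 for Dbp, 0.846 for Tef and 0.891 for Hlf.

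A list of 54 partner genes (electron carriers, epoxide hydrolases, glutathione and sulfate supply, export pumps and regulators) had 41 genes on the array, and 34 probe sets of 26 genes were tested. Limma called 0 of them for the rhythm or for CT 12 minus CT 0 after adjustment. It gave 7 probe sets at an unadjusted rhythm p under 0.05 (6.36% of all tested probe sets), including both of Dbp. At that p 4 were higher (4.19% of all) and 3 lower (4.49% of all) at CT 12 than at CT 0, and the median amplitude was 0.15. Cyb5a, cytochrome b5, an electron donor to P450s, peaked at CT 20.7 on 1 probe set (amplitude 0.89 ± 0.22) and had an amplitude of 0.18 on the other. Ephx2, the soluble epoxide hydrolase, peaked at CT 14.4 with 0.59 ± 0.17, and Fmo1, a flavin monooxygenase, at CT 9.05 with 0.47 ± 0.13. Nfe2l2, the transcription factor that drives many Gst genes, peaked at CT 22.2 with 0.39 ± 0.13 and fitted 0.15 on its other probe set. Gclm, of glutathione synthesis, peaked at CT 21.5 with 0.40 ± 0.14 on 1 probe set and at CT 7.04 with 0.41 ± 0.20 on the other (log2, SE, n = 8 for each).

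Whole tissue was read, so that fewer cells of a type and less RNA per cell cannot be told apart. Of the SCN markers on the array Avp, Sst, Gad1 and Gad2 exceeded the level limit, while Vip (49.0) and Rorb (17.5) did not. All 7 astrocyte markers measured exceeded it, and their summed intensity was 40562 to 42943 in the CT 0 pools and 45045 to 46292 in the CT 12 pools. The 6 SCN markers summed to 17662 to 18615 at CT 0 and 20730 to 21244 at CT 12. Their sums were 16895 to 19191 at CT 6 and 15851 to 15965 at CT 18. A sum weighs the brightest markers most, and the median CT 12 minus CT 0 difference was -0.002 for the astrocyte list and 0.14 for the SCN list. Astrocyte markers went both ways, with Glul at 0.24 and Fabp7 at -0.40. So did the SCN markers, with Avp at 0.60 and Vip at -0.96. The vessel and meningeal lists had median CT 12 minus CT 0 differences of 0.18 and -0.16, the oligodendrocyte list -0.08, and the choroid plexus list -0.08. The choroid plexus list summed to 516 to 607 at CT 6 and 315 to 374 at CT 18. Its marker Ttr had the highest amplitude of all tested probe sets, 1.02, with a peak at CT 6.12. The vessel sums went the other way, with 2897 to 2984 at CT 6 and 3002 to 3539 at CT 18. Oligodendrocyte and meningeal sums overlapped between CT 6 and CT 18. Of 10 hepatocyte markers 6 exceeded the floor on all 18 arrays, and 4 exceeded the limit (Apoa1, Serpina1, Ttr and Hp). Albumin was under the limit at 79.8, and the summed level of the list was 1235 to 1311 at CT 0 and 1235 to 1252 at CT 12. The 5′ control of GAPDH read far below the 3′ control on all 18 arrays. Their ratio, a sign of RNA length, was highest on the first-run 0 h array, at 0.117, and 0.0284 to 0.0698 on the others. The level of a probe set may thus also depend on where its probes lie in the transcript. The part of these values in the results was not tested.

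Some dim members separated by phase although they were not tested. Cyp2c22 (M58041_s_at), above the floor on all 18 arrays, measured 82.8 and 66.5 at CT 0, 33.2 and 28.7 at CT 6, 48.0 and 41.3 at CT 12, and 86.1 and 94.5 at CT 18. Both CT 18 pools were the highest and both CT 6 pools the lowest. It was singled out after its values were seen. With no level filter its amplitude was 0.86 ± 0.09 (SE, n = 8) with a peak at CT 19.7 and a limma adjusted p of 0.153, and its single arrays were uneven, with 120 in the first run and 19.2 in the repeat at 12 h. Cyp11a1, which starts steroid synthesis from cholesterol and was also chosen after its values were seen, measured 55.7 and 49.5 at CT 18 and from 14.0 to 27.5 in the other pools. It exceeded the floor on 16 of 18 arrays, and limma's adjusted p for its rhythm was 0.614 with no level filter. Its single arrays at CT 18 read from 32.3 to 76.0, while array b of 36 h read 41.3.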

How the data were processed

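The authors deposited 1 linear intensity per probe set and array, already scaled: the mean after trimming 2% at each end was 500.7 to 500.8 on all 18 arrays. The summarisation method is not given in the sources used here. Values under the 10th percentile (12.1) were set to it and log2-transformed; arrays a and b, assumed to read 1 pool, were averaged, then both runs. The 59 control probe sets were left out. A 24 h cosine and sine were fitted to 8 pool means with limma 3.58.1 (R 4.3.3; 5 residual and 5.13 prior degrees of freedom), with Benjamini-Hochberg adjustment over the 4370 probe sets above the median level (threshold 0.05). Differences between phases came from that fit (2 pools a phase), differences between days from an added day term. The fits were tested on simulated data. The number of arrays limits the precision.

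Genes were named from the platform annotation, only where a probe set had 1 symbol (7006 probe sets). Values by pool are given for the 10 tested member probe sets with the smallest rhythm p, the 8 genes with the brightest probe sets, the 3 with the smallest p in each direction of each difference, Por, and, in part, other probe sets of these genes; Aldh1l1, Cyp2c22 and Cyp11a1 were added after their values were seen. Members and lists were chosen with earlier results of these data known. Alternatives were 2 other normalizations, other filters, floors and error models, each run, array letter or pool left out, and, added after seeing the data, 3 arrays left out.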

Additional observations from a re-analysis of the deposited data

How the results depend on the processing

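No member passed an adjusted p under 0.05 in limma under any of the 22 alternatives, and the smallest adjusted p over them was 0.153 for the rhythm (Cyp2c22, no level filter), 0.104 for CT 12 minus CT 0 (Cyp2e1, without the 42 h pool), 0.134 for CT 6 minus CT 18 (Cyp2c22, no level filter) and 0.402 for the day difference (Cyp2d4, without arrays b). For 30 amplitudes and differences of named probe sets, most of them picked for a small p, 626 of 628 values under the alternatives kept their direction, while 24 of the 52 members compared between runs turned the sign of CT 12 minus CT 0, and CT 6 minus CT 18 of Por on rc_AI137856_s_at was -0.78 but 0.06 in the first run alone; Gstp1 X02904cds_s_at turned its phase in the technical repeat alone (amplitude 0.23) and Cyp4f17 its CT 6 minus CT 18 in the first run alone (-0.47). An amplitude was taken to keep its direction unless its fitted peak shifted by more than 6 h, and a difference unless its sign changed. Counts at an unadjusted p under 0.05 moved more than these values. The number of members tested differed between alternatives, with all 149 entering with no filter and 58 in the main fit. A higher count is therefore not a higher share, and the array's share under each alternative is not given here. For the rhythm (8) they were 13 with no filter, 2 with a filter at the 75th percentile, 4 in the first run, 5 without the arrays with high hybridisation controls (an alternative chosen after seeing the data) and 3 to 10 with each pool left out. For CT 12 minus CT 0 (10) they were 5 with the 75th percentile, 6 in the technical repeat, 6 without arrays b, 2 without the arrays with high controls and 6 to 13 with each pool left out. For CT 6 minus CT 18 (2) they were 10 with no filter, 1 with the 75th percentile, 1 in the first run, 4 in the technical repeat, 4 with a day term, 5 without the arrays with high controls and 2 to 6 with each pool left out. For the day difference (4) they were 8 with no filter, 1 with the 75th percentile, 2 in the technical repeat, 7 without arrays b, 7 from single arrays with the pool as a block, and 3 to 9 with each pool left out. Beyond the changed numbers of probe sets or arrays, the cause was not tested. With 1 pool a time point and 2 pools a phase, amplitudes near the median of the array cannot be told from array error, and dim probe sets lie near the floor.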
